A study of Arabidopsis thaliana with 9 samples.

Results

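The ubiquitin-specific proteases of Arabidopsis thaliana, named UBP with a number, were followed in T87 cells with intact walls, after mannitol treatment and after wall digestion. Members were the genes whose symbol in the array's annotation is UBP followed by a number and that have a probe set assigned to them alone. This gave 12 genes, UBP15, UBP16 and UBP18 to UBP27, of the 13356 genes with such a probe set. A RefSeq gene table of the assembly TAIR10.1 lists 27 UBP genes, and the other 15 were not analysed here. T87 is an undifferentiated cell line kept in liquid suspension, described as wild type and grown in the light, and all 9 Affymetrix ATH1 arrays come from cultures aged 4 days, with 3 biological replicates per group. Protoplasts had been digested for 1.5 h with 1% cellulase and 0.5% pectolyase in 0.35 M mannitol, rinsed 3 times, and then held for 3 h in medium with 0.4 M mannitol. Osmotic cells kept their walls and spent 3 h in medium with the same 0.4 M mannitol, which draws water out of cells. Intact cells received neither enzymes nor mannitol, and no mock-treated cells are labelled. Protoplasts and osmotic cells therefore differ in digestion, washing, the longer time in mannitol that the digestion adds, and total handling time, and these cannot be told apart here.

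Ubiquitin is a small protein that is attached to other proteins by a chain of activating (E1), conjugating (E2) and ligating (E3) enzymes, and chains of it can send a protein to the 26S proteasome. Deubiquitinases remove it again, and UBPs, which carry a catalytic cysteine, are the most numerous class of these in Arabidopsis. By removing ubiquitin they can rescue a protein from breakdown, recycle ubiquitin, or erase a regulatory mark such as ubiquitin on histone H2B.

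Values are probe set intensities on a linear scale, and tests were made on log2(intensity + 16), which understates the changes of dim genes. A gene was called at a limma adjusted p under 0.05, adjusted over all 13356 genes. Median intensities over all probe sets were 123 ± 7.65 in protoplast, 156 ± 9.44 in osmotic and 155 ± 2.22 in intact arrays (SD, n = 3). The third arrays of the groups stood apart and deviated together. The deviations of the third arrays correlated over genes with r = 0.32 between protoplasts and osmotic cells, 0.14 between protoplasts and intact cells, and 0.31 between osmotic cells and intact cells. The clock gene GI, one of 2 measured genes of a list of partners of UBP proteins, shows this: it had 138, 123 and 261 in the protoplast arrays, 80.0, 108 and 310 in the osmotic arrays and 75.9, 108 and 294 in the intact arrays, the third value being the highest each time. IKU2, the other gene of that list, was also not called in any comparison. Of 12 markers fixed for differentiated cells, 7 were measured and their summed intensity was 153 to 189 in protoplast, 124 to 168 in osmotic and 157 to 186 in intact arrays. The root hair, guard cell and pollen tube markers stayed at or under 51.0, while the secondary wall gene GUT2 had 89.6 to 114. GUT2 alone made up most of the sum on each array, so the sums say little about the other markers. In such bulk RNA, a smaller share of some cells and less RNA of a gene per cell cannot be told apart.

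In protoplasts, 7 of the 12 UBP genes differed from intact cells, with UBP20, UBP16, UBP19 and UBP18 higher and UBP27, UBP21 and UBP26 lower. Over all genes 45.0% were called in this comparison, 15.8% higher and 29.2% lower. After quantile normalization or after centring each array on its median, 5 UBP genes were higher and 2 lower, where 17.7% and 25.7% of all genes were higher and lower after quantile normalization and 24.5% and 21.7% after centring. Over all genes, the share of lower genes among those called was 64.9% as deposited, against 59.1% and 47.0% under these scalings. In osmotic cells, 2 UBP genes differed from intact cells, UBP20 higher and UBP21 lower, where 7.33% of all genes were called, 3.58% higher and 3.75% lower. Against osmotic cells, 4 UBP genes were higher in protoplasts, UBP20, UBP16, UBP24 and UBP19, and 0 were lower, where 39.0% of all genes were called, 13.3% higher and 25.7% lower. At an unadjusted limma p under 0.05, the counts in this comparison were 7 higher and 0 lower, where 16.1% of all genes were higher and 29.8% lower. Fitted to replicates 1 and 2 alone, without the third arrays, protoplasts had 4 UBP genes higher and 2 lower than intact cells, where 17.2% of all genes were higher and 31.8% lower. In that fit osmotic cells had 1 higher and 2 lower than intact cells, against 6.30% and 4.72% of all genes, and protoplasts had 7 higher and 1 lower than osmotic cells, against 14.7% and 30.2% of all genes. These comparisons share arrays, so they are not independent of each other.

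**Figure D1:**
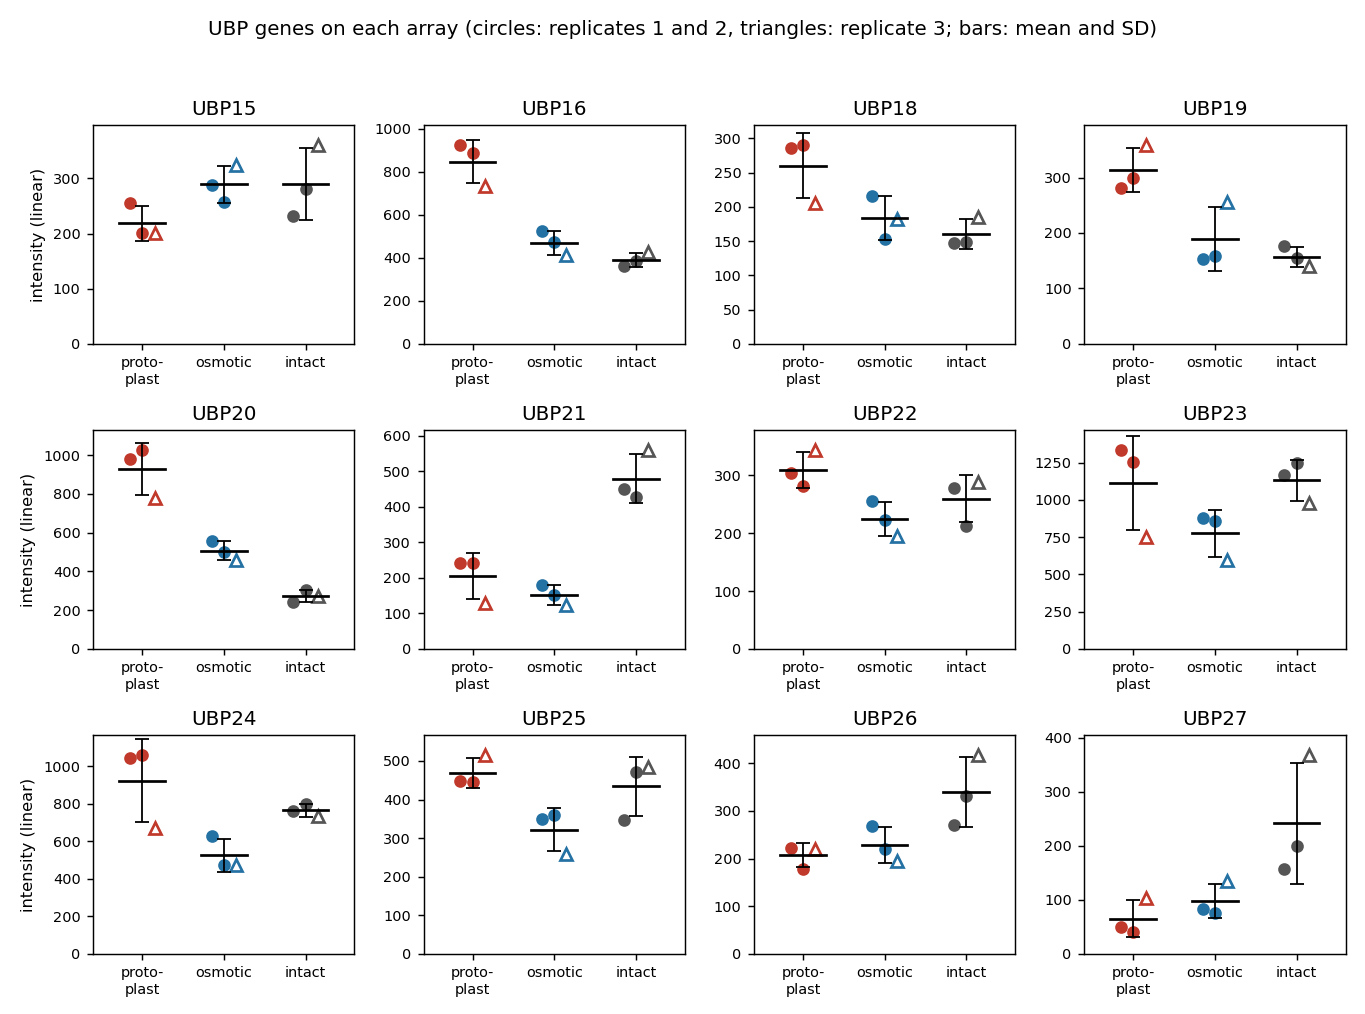
Intensity (linear scale, y axis from 0) of the 12 UBP genes on each array, by group (x axis). Circles are replicates 1 and 2, triangles replicate 3, long bars the means and thin bars the SD (n = 3). UBP20 has no overlap between any of the groups, and UBP21 is highest in intact cells.

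UBP20 (AT4G17895) stood highest in protoplasts, lower in osmotic cells and lowest in intact cells. Its intensities were 983, 1025 and 777 in protoplasts, 559, 501 and 461 in osmotic cells and 241, 304 and 270 in intact cells. No array of one group overlapped with another group. Mean intensity was 928 ± 133 in protoplasts, 507 ± 49.2 in osmotic cells and 272 ± 31.5 in intact cells (SD, n = 3), so that the ratio of means was 3.41 for protoplasts over intact cells. The log2 change was 1.71 ± 0.18 for protoplasts against intact cells (SE, limma adjusted p = 5.4e-05) and 0.86 ± 0.18 for osmotic against intact cells (limma adjusted p = 0.0219). Protoplasts exceeded osmotic cells by a further 0.85 ± 0.18 (limma adjusted p = 0.00426). The difference between osmotic and intact cells lost its call when intact replicate 1 (limma adjusted p = 0.0858), intact replicate 3 (0.0668), osmotic replicate 1 (0.0769) or osmotic replicate 2 (0.0763) was left out.

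UBP21 (AT5G46740) went the other way and was lowest after mannitol alone. It had 241, 242 and 129 in protoplasts, 180, 152 and 123 in osmotic cells and 451, 428 and 559 in intact cells. All treated arrays lay below all intact arrays, and protoplast and osmotic arrays overlapped. The change in osmotic cells against intact cells was -1.57 ± 0.26 on the log2 scale (limma adjusted p = 0.00821), with a ratio of means of 3.16 for intact over osmotic cells. Protoplasts differed from intact cells by -1.21 ± 0.26 (limma adjusted p = 0.00354), and both calls held with each array left out in turn. Protoplasts against osmotic cells had 0.36 with a 95% interval from -0.22 to 0.94, which was not called (limma adjusted p = 0.324). The third protoplast array is the low one here, and without it this difference was 0.63 (limma adjusted p = 0.0348); with replicates 1 and 2 alone it was 0.51 (limma adjusted p = 0.0388). Quantile normalization and median centring both gave 0.66, which was not called (limma adjusted p = 0.0802 and 0.0824).

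UBP15 to UBP19 share a MYND-type zinc finger, and 4 of them were measured. UBP16 (AT4G24560), which acts in salt tolerance and, together with UBP15, in leaf growth, had 922, 887 and 732 in protoplasts, 523, 473 and 413 in osmotic cells and 362, 385 and 426 in intact cells. Protoplast arrays did not overlap with the others, while osmotic and intact arrays did. It rose by 1.08 ± 0.17 on the log2 scale in protoplasts against intact cells (limma adjusted p = 6.4e-04) and by 0.83 ± 0.17 against osmotic cells (limma adjusted p = 0.00388). Osmotic against intact cells gave 0.25, with a 95% interval from -0.13 to 0.64. Its calls held with each array left out.

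UBP19 (AT2G24640) had 282, 300 and 358 in protoplasts, 152, 159 and 255 in osmotic cells and 177, 154 and 140 in intact cells. Its protoplast arrays were above all others, the third osmotic array coming closest. The log2 change was 0.93 ± 0.22 against intact cells (limma adjusted p = 0.00626). Against osmotic cells it was 0.71 ± 0.22 (limma adjusted p = 0.0271), a call that ended without osmotic replicate 1 (limma adjusted p = 0.0968), osmotic replicate 2 (0.096), protoplast replicate 2 (0.0594) or protoplast replicate 3 (0.0694), and in a fit to these groups only (0.0562). UBP18 (AT4G31670) had 285, 290 and 206 in protoplasts, 216, 153 and 182 in osmotic cells and 147, 149 and 186 in intact cells. Its protoplast arrays lay above the intact arrays but overlapped with the osmotic ones. The change against intact cells was 0.64 ± 0.20 (limma adjusted p = 0.0271), and the call ended without intact replicate 1 (limma adjusted p = 0.0873), intact replicate 2 (0.0837), protoplast replicate 1 (0.086) or protoplast replicate 2 (0.0915). Against osmotic cells it had 0.47 ± 0.20 and was not called (limma adjusted p = 0.101), but it was called without protoplast replicate 3 (limma adjusted p = 0.0326), with replicates 1 and 2 alone (0.0447) and with array weights (0.016). Quantile normalization gave 0.75 and median centring 0.77 for this difference, and both called it (limma adjusted p = 0.0205 and 0.0215).

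UBP15 (AT1G17110), which promotes cell proliferation and organ size, was the member of this group that was not called in any comparison. It had 255, 201 and 200 in protoplasts, 288, 257 and 324 in osmotic cells and 231, 280 and 360 in intact cells. Protoplast arrays lay just below the osmotic arrays and overlapped with the intact ones. The log2 change in protoplasts was -0.37 with a 95% interval from -0.83 to 0.09 against intact cells, and -0.38 with an interval from -0.84 to 0.07 against osmotic cells. Both came closer to 0 under the other scalings, with -0.069 and -0.089 after quantile normalization and -0.051 and -0.081 after median centring.

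UBP26 and UBP22 are known to remove ubiquitin from histone H2B, UBP22 as a subunit of the deubiquitinating module of the SAGA complex and UBP26 in gene silencing. UBP26 (AT3G49600) had 223, 178 and 220 in protoplasts, 268, 220 and 194 in osmotic cells and 269, 332 and 417 in intact cells. The intact arrays were above all others, with intact replicate 1 just above the highest osmotic array. UBP26 differed in protoplasts from intact cells by -0.66 ± 0.21 on the log2 scale (limma adjusted p = 0.027). This call ended without intact replicate 2 (limma adjusted p = 0.0655), intact replicate 3 (0.0967) or protoplast replicate 2 (0.0944), with replicates 1 and 2 alone (0.0679), after median centring (0.205) and after quantile normalization (0.2), where the change was -0.34 and -0.35. For osmotic against intact cells UBP26 had -0.54 ± 0.21 and was not called (limma adjusted p = 0.163).

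UBP22 (AT5G10790) had 305, 281 and 343 in protoplasts, 255, 224 and 195 in osmotic cells and 277, 213 and 289 in intact cells. Protoplast arrays were above the osmotic arrays and overlapped with the intact ones. It was not called as deposited, with 0.25 ± 0.18 in protoplasts against intact cells (limma adjusted p = 0.326) and 0.44 ± 0.18 against osmotic cells (limma adjusted p = 0.0909). After median centring the values were 0.57 against intact cells (limma adjusted p = 0.0248) and 0.74 against osmotic cells (limma adjusted p = 0.00841), and quantile normalization also called both (limma adjusted p = 0.0306 and 0.00962). A pseudocount of 64 called the difference from osmotic cells (limma adjusted p = 0.0488).

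UBP27 (AT4G39370) encodes a protease anchored in the outer mitochondrial membrane, where it affects the shape of mitochondria. Its intensities were 48.8, 40.8 and 104 in protoplasts, 83.2, 76.4 and 134 in osmotic cells and 156, 200 and 367 in intact cells. The third array was the highest of each group, and all intact arrays were above all treated arrays. It fell in protoplasts, to a mean of 64.6 ± 34.4 against 241 ± 111 in intact cells (SD, n = 3). The log2 change was -1.67 ± 0.37 (limma adjusted p = 0.0045), and the call held with each array left out. In osmotic against intact cells UBP27 had -1.13 ± 0.37 and was not called (limma adjusted p = 0.105). With the replicate number as a block it was called (limma adjusted p = 0.013), as with replicates 1 and 2 alone (limma adjusted p = 0.0256) and with array weights (0.0203). Protoplasts against osmotic cells had -0.55 ± 0.37 (limma adjusted p = 0.295), and also here the replicate block gave a call (limma adjusted p = 0.0464), as did replicates 1 and 2 alone (limma adjusted p = 0.0279), while median centring gave -0.24 (limma adjusted p = 0.636).

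UBP24 (AT4G30890), which has been tied to abscisic acid responses, was lowest in osmotic cells. It had 1042, 1059 and 671 in protoplasts, 626, 476 and 473 in osmotic cells and 764, 800 and 733 in intact cells. The osmotic arrays were below all others, and the third protoplast array was below the intact arrays. UBP24 was higher in protoplasts than in osmotic cells by 0.78 ± 0.22 on the log2 scale (limma adjusted p = 0.0167). The limma adjusted p was 0.0509 without osmotic replicate 3, 0.0597 without osmotic replicate 2, 0.0633 without protoplast replicate 1 and 0.0652 without protoplast replicate 2. Against intact cells, osmotic cells had -0.54, with a 95% interval from -1.03 to -0.06 before adjustment, and was not called (limma adjusted p = 0.172, and 0.0413 with array weights). Protoplasts against intact cells had 0.24, with an interval from -0.25 to 0.72, and 0.56 after median centring (limma adjusted p = 0.0729).

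UBP23 (AT5G57990) and UBP25 (AT3G14400) were lower on average in osmotic cells than in the other groups but were not called in any comparison. UBP23 had 1332, 1253 and 753 in protoplasts, 876, 858 and 594 in osmotic cells and 1167, 1246 and 977 in intact cells. UBP25 had 449, 445 and 515 in protoplasts, 348, 360 and 258 in osmotic cells and 346, 472 and 484 in intact cells. The third array of UBP23 was the lowest of every group, and the osmotic arrays of UBP25 lay below its protoplast arrays but overlapped with the intact ones. In protoplasts against osmotic cells UBP23 had 0.49 ± 0.26 (limma adjusted p = 0.171) and UBP25 0.53 ± 0.20 (limma adjusted p = 0.0611). Without protoplast replicate 3, UBP23 was called with 0.75 (limma adjusted p = 0.0238), as it was with replicates 1 and 2 alone (0.0199) and with array weights (0.0373). After median centring both were called, UBP23 with 0.79 and UBP25 with 0.83 (limma adjusted p = 0.0391 and 0.00652). UBP25 was also called after quantile normalization (limma adjusted p = 0.0107), with a pseudocount of 64 (0.0345), without the dimmest 40% of genes (0.0336) and with trended, robust variances (0.0464).

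For UBP23 and UBP24 the third array was the lowest in all 3 groups, and for UBP27 it was the highest. Over all genes, 8.86% had it lowest in all 3 groups and 10.8% highest. The part of the third arrays in these 3 genes' results was not tested beyond the fits without them.

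**Figure D2:**
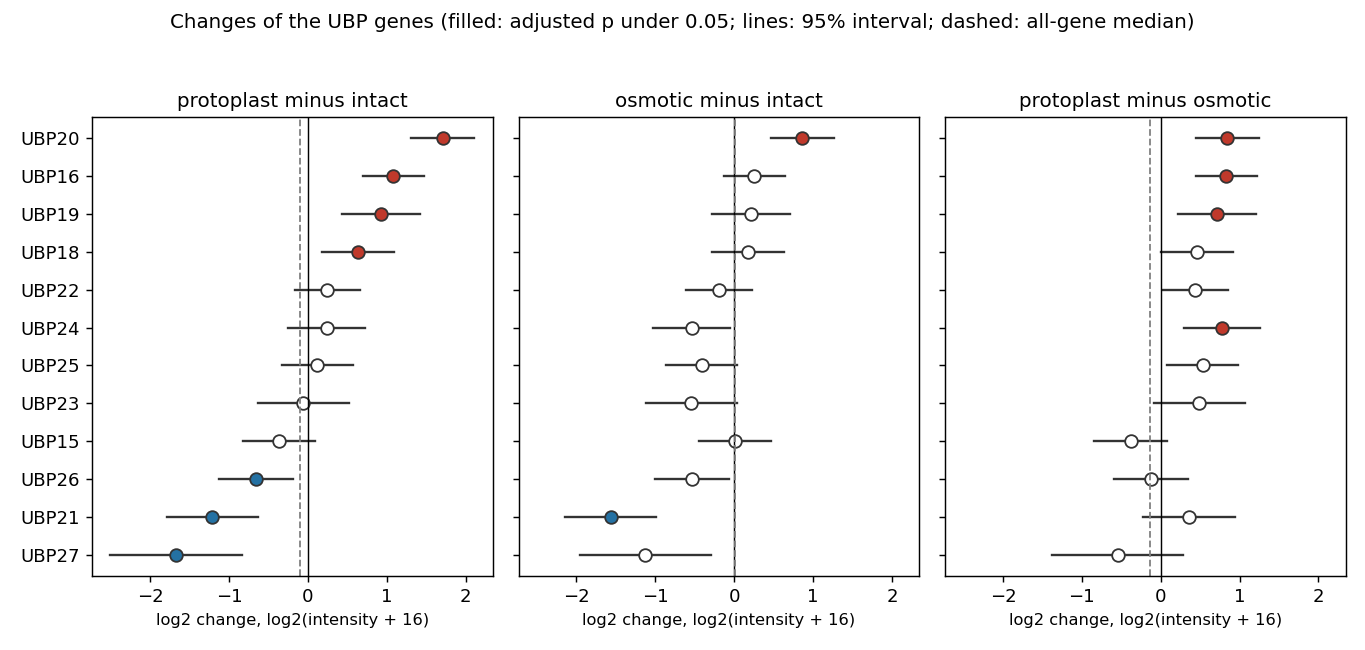
Log2 change on the log2(intensity + 16) scale (x axis) of the 12 UBP genes (y axis), ordered by their change in protoplasts against intact cells, in the 3 comparisons. Red and blue points were called higher and lower, white points were not called, lines are 95% intervals and the dashed line is the median of all genes. UBP20 is called higher in all 3 panels, and UBP21 lower in both comparisons with intact cells.

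The members were also counted by whether the arrays of 2 groups overlapped. In protoplasts against intact cells, 4 UBP genes lay wholly above and 3 wholly below, where 52.6% of all genes did not overlap. In osmotic against intact cells 1 lay above and 5 below, against 30.9% of all genes in either direction. The 5 were UBP21, UBP23, UBP24, UBP26 and UBP27, and only UBP21 of these was called. In protoplasts against osmotic cells 6 lay above and 1, UBP15, below, against 47.6% of all genes in either direction. These all-gene shares were not split by direction, so they give no background for the members above or below taken singly. The median log2 change of the 12 genes was 0.18 for protoplasts and -0.30 for osmotic cells, each against intact cells, and 0.48 for protoplasts against osmotic cells. Over all genes these medians were -0.10, 0.01 and -0.14. Median centring moved the all-gene medians to 0.22, 0.02 and 0.16. Relative to the median of all genes, which takes out that shift, protoplasts against intact cells had 1.81 for UBP20, 1.18 for UBP16, 1.03 for UBP19, 0.74 for UBP18, -0.55 for UBP26, -1.11 for UBP21 and -1.57 for UBP27. The direction of these 7 genes was the same under every scaling.

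Across the 9 arrays, UBP20 and UBP16 had the highest correlation of any pair of UBP genes (Pearson r = 0.94 over log2 values), and UBP20 and UBP27 the lowest (r = -0.87). These points share their group and their array, so the values describe the group differences above.

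The other measured genes of the ubiquitin pathway were 12 E2 genes, 9 U-box E3 ligase genes, 5 genes of cullin ligases, 3 of the cycle of the ubiquitin relative SUMO, and RPN12a of the proteasome lid. Lists of ubiquitin genes and of other deubiquitinases (UCH, OTU and AMSH) had 0 members with a matching symbol and a one-gene probe set. Of the E2 genes, 2 rose and 5 fell in protoplasts against intact cells, with a median of -0.48, where 15.8% of all genes were higher, 29.2% lower and the median was -0.10. UBC30 had 1.08 and UBC32, an E2 of the endoplasmic reticulum, 0.96, while UBC31 had -1.97 and UBC20 -1.57 (limma adjusted p at most 0.00536). UBC31 was dim in protoplasts, with 41.8, 7.65 and 55.3. In osmotic against intact cells 0 of the 12 E2 genes were called by limma, with 2 higher and 1 lower at an unadjusted p under 0.05, a threshold that 10.6% of all genes passed as higher and 11.7% as lower. Against osmotic cells, where 13.3% of all genes were higher and 25.7% lower, protoplasts had 1 E2 gene higher, UBC19 with 0.55, and 2 lower, UBC37 with -1.16 and UBC20 with -1.01.

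The U-box ligase genes had the widest range of changes of these lists in each comparison. Of the 9, 5 rose and 2 fell in protoplasts against intact cells, with a median of 1.12, against 15.8% and 29.2% of all genes. PUB23 and PUB22, ligases that restrain pattern-triggered immunity, had 5.37 and 4.43. PUB25 and PUB26, which mark the immune kinase BIK1 for breakdown, had -1.67 and -1.15 (limma adjusted p at most 0.0293 for all of these). In protoplasts PUB25 had 27.3, 20.7 and 26.4 and PUB26 32.8, 22.6 and 9.51. Such dim signals could not be told from background, which limits the size of both falls. In osmotic cells 3 of the 9 U-box genes rose against intact cells and 0 fell by limma. Over all genes 3.58% were higher there and 3.75% lower. At an unadjusted p under 0.05 there were 4 higher and 0 lower, against 10.6% and 11.7% of all genes. PUB23 had 2.75 ± 0.40 and PUB22 2.12 ± 0.54 there. Against osmotic cells 4 were higher in protoplasts and 1 lower, against 13.3% and 25.7% of all genes, with PUB24 at 3.71, PUB23 at 2.62 and PUB25 at -2.18.

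Of the 5 cullin ligase genes, 1 was called in protoplasts, SK18, which encodes an SKP1-like protein, with -1.45 against intact and -1.62 against osmotic cells. Over all genes 45.0% and 39.0% were called in these comparisons. The genes SK15, SK16 and SK19 were dim, with mean intensities of at most 12.9 in every group. Of these 5 genes, 0 were called by limma in osmotic against intact cells, and 0 had an unadjusted p under 0.05, which 22.3% of all genes had. Of the 3 SUMO genes, the SUMO ligase gene SIZ1 rose by 2.07 ± 0.17 in protoplasts against intact cells (limma adjusted p = 1.5e-05) and by 1.41 against osmotic cells. Its intensities, from the brighter of its 2 one-gene probe sets, were 1840, 1795 and 1533 in protoplasts, 678, 702 and 542 in osmotic cells and 400, 429 and 364 in intact cells. This is the same order of groups as for UBP20. The other probe set of SIZ1 was not looked at by itself. The subunit gene SAE1A of the SUMO-activating enzyme had -0.71 against intact and -0.81 against osmotic cells (limma adjusted p = 0.0324 and 0.0212). In osmotic against intact cells 0 SUMO genes were called by limma, with 1 higher and 1 lower at an unadjusted p under 0.05, against 10.6% and 11.7% of all genes. RPN12a had -0.91 in protoplasts against intact cells (limma adjusted p = 0.0138) and -0.84 against osmotic cells (limma adjusted p = 0.0228). In osmotic against intact cells it had -0.06 (limma adjusted p = 0.928).

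**Figure D3:**
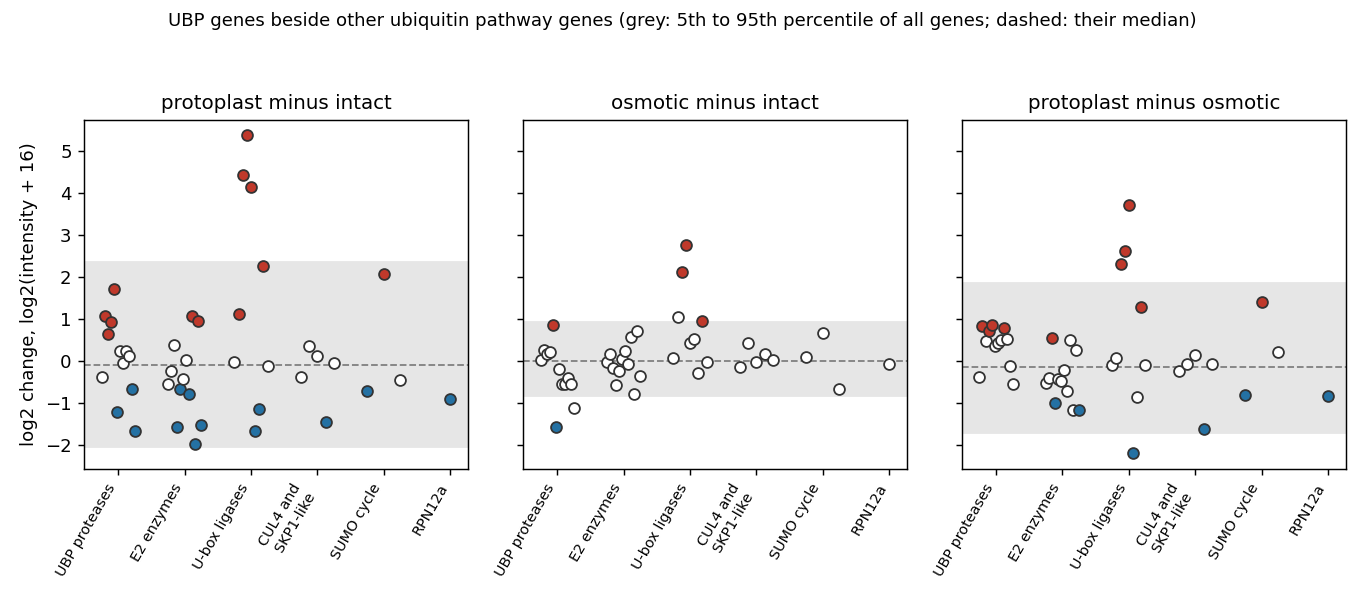
Log2 changes on the log2(intensity + 16) scale (y axis) of UBP genes and of other ubiquitin pathway genes (x axis) in the 3 comparisons. Each point is a gene, red called higher, blue called lower and white not called, the grey band spans the 5th to the 95th percentile of all genes and the dashed line is their median. PUB23 at 5.37 is the highest point for protoplasts against intact cells, and UBP20 at 1.71 lies inside the band.

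Among 1555 other genes with a symbol other than a locus code, those whose log2 values were most like UBP20 over the 9 arrays were ATSIK (r = 0.986), the transcription factor gene WRKY22 (r = 0.983), NDB2, an external NAD(P)H dehydrogenase gene of mitochondria (r = 0.982), BZIP60, a transcription factor gene of endoplasmic reticulum stress (r = 0.979), and PUB23 (r = 0.979). All 5 had larger ranges than UBP20. BZIP60 had mean intensities of 8872 ± 865 in protoplasts, 2130 ± 75.6 in osmotic cells and 552 ± 73.9 in intact cells, and ATSIK 1737 ± 205, 644 ± 38.4 and 162 ± 20.1 in the same order (SD, n = 3). Each gene held the order protoplast, osmotic, intact, which follows from choosing them for their likeness to UBP20.

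For UBP21 the most similar genes were PSY1R, a receptor kinase gene of the peptide hormone PSY1 (r = 0.964), TERT, the catalytic subunit gene of telomerase (r = 0.955), the chloroplast gene rps16 (r = 0.945), the mitochondrial cytochrome c maturation gene ccb206 (r = 0.921) and TOPP7, a protein phosphatase gene (r = 0.912). PSY1R had 50.1 ± 9.22 in protoplasts, 42.1 ± 11.5 in osmotic cells and 161 ± 21.3 in intact cells, and TERT 56.2 ± 14.9, 33.6 ± 5.39 and 104 ± 11.8 in the same order (SD, n = 3). Like UBP21, all 5 were highest on average in intact cells and lowest in osmotic cells, which again follows from how they were chosen. The arrays of a group share their treatment, so these correlations describe likeness of pattern only.

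**Figure D4:**
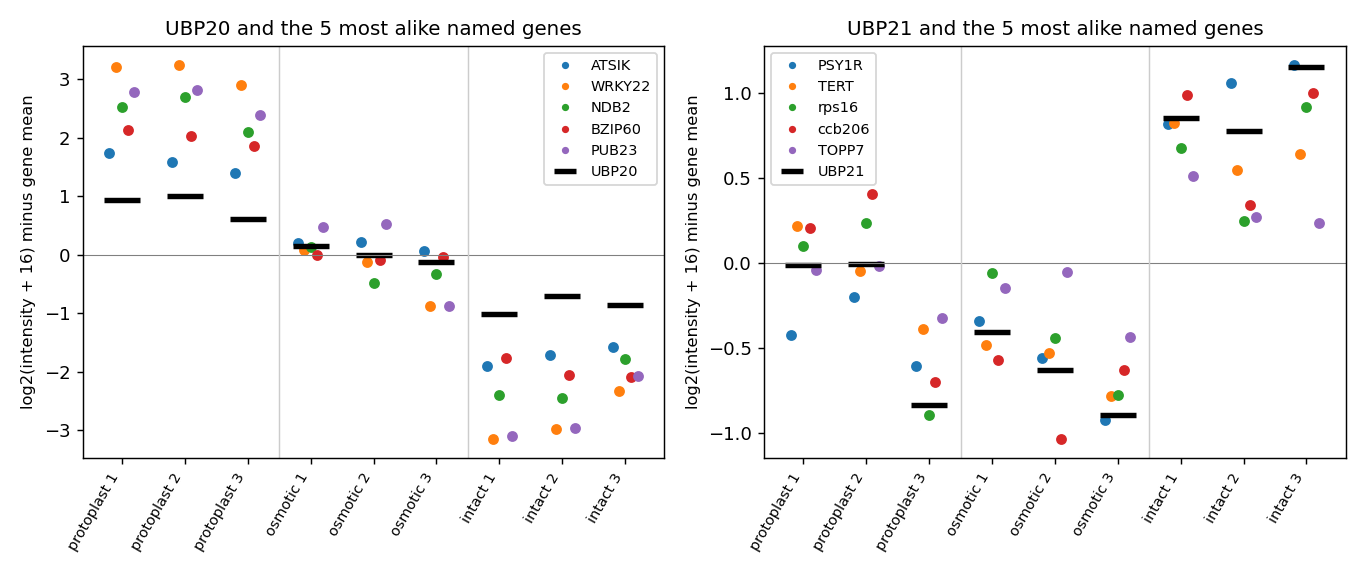
Log2(intensity + 16) minus the gene's mean over the 9 arrays (y axis) on each array (x axis), for UBP20 and UBP21 (black bars) and the 5 named genes most like each (coloured points). The genes beside UBP20 span a wider range than UBP20 itself, and those beside UBP21 are highest on average in intact cells.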

How the data were processed

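RNA from 9 Affymetrix ATH1 arrays was measured, per the labels from 750 ng of total RNA amplified from its 3-prime end. The authors deposited 1 linear intensity for every probe set on every array, and these show that each array was scaled to a trimmed mean of 500, leaving out 2% at each end. The summary method for probes was not given in the sources used here. Without detection calls, a dim signal could not be told from background. Of 22810 probe sets, 64 were controls, 13513 had 1 gene symbol in the array's annotation, 503 had several and 8730 were not named. Each gene was read from its brightest one-gene probe set, and each UBP gene had 1 such probe set; 13286 of the 13356 genes matched the RefSeq table.

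From the deposited intensities, log2(intensity + 16) was fitted for all 9 arrays in 1 linear model with limma 3.58.1 (R 4.3.3), with empirical Bayes variances and Benjamini-Hochberg adjustment over all genes within each comparison. The step was tested on simulated arrays with independent noise, for protoplasts against intact cells only. Deviations shared by the third arrays were not simulated, so that test does not cover them. Python 3.11.15 with pandas 2.3.3 matched names, and matplotlib 3.10.9 drew the plots. The number of arrays limits the precision: SEs of UBP changes were 0.17 to 0.37 on the log2 scale. All UBP genes were named, and of each pathway list the 2 largest called rises and falls; SIZ1's and GI's values by array, and the markers' levels, were chosen after they were seen. Members and lists were chosen with earlier results of these data known.

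Replicate numbers were checked as pairs. Deviations from group means of same-numbered arrays correlated over genes with r between 0.10 and 0.31 for osmotic and intact cells and between 0.12 and 0.32 for protoplasts and osmotic cells, over 0.1 for 3 of 3 pairs each. For protoplasts and intact cells they lay between 0.02 and 0.14. Among replicates 1 and 2, pairs with different numbers had similar values. Osmotic 1 with intact 2 had 0.15, and osmotic 2 with intact 1 had 0.13. Protoplast 1 with osmotic 2 and protoplast 2 with osmotic 1 each had 0.15. Such pairs of protoplasts and intact cells had 0.09 and 0.04. Replicate 3 had values from -0.25 to -0.05 with replicates 1 and 2 of other groups. These values set replicate 3 apart but do not show that replicates 1 and 2 pair by number. The labels give no source of pairing. The alternatives were this block, other scalings, pseudocounts of 1 and 64, array weights, other variance priors, a gene's mean over its probe sets, leaving out the dimmest 40% of genes, fits to only the groups compared, leaving out each array, and replicates 1 and 2 alone.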

Additional observations from a re-analysis of the deposited data

How the results depend on the processing

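No UBP change that was called as deposited turned its sign in its own comparison under any of the alternatives. The replicate block, other variance priors, leaving out the dimmest genes and fits to only the groups compared cannot move a log2 change. Neither can leaving out an array of the group not compared. Each UBP gene has 1 probe set, so the mean over probe sets keeps its intensities. These settings are included in the counts that follow. Of 260 values of called UBP genes under the alternatives, 237 stayed called and 23 were not, 19 of these with 1 array left out, and 27 values of genes not called became called, 5 of them after median centring and 5 with replicates 1 and 2 alone. The causes were not tested.

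The replicate block gave 2 lower UBP genes in osmotic against intact cells, and 1 for protoplasts against osmotic cells, by adding UBP27, and changed no other UBP call. Array weights gave 3 lower in osmotic against intact cells, and replicates 1 and 2 alone gave 2. In protoplasts against osmotic cells, the 4 higher UBP genes became 7 after quantile normalization, 8 after median centring, 6 with array weights, 6 with a pseudocount of 64 and 7 with replicates 1 and 2 alone, and 1 was lower there. In the same order of settings 2133, 2712, 2098, 1850 and 1968 of all genes were higher, against 1772 as deposited. With 1 array left out, 0 to 1 UBP genes were higher in osmotic against intact cells. Against osmotic cells, protoplasts had 2 to 6 higher, against 1489 to 1873 of all genes.

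Over all genes, osmotic against intact cells had 478 higher and 501 lower. These became 300 and 214 with a pseudocount of 1, 1189 and 1193 with array weights, 842 and 630 with replicates 1 and 2 alone, and 821 lower with a pseudocount of 64 and 766 lower without the dimmest 40%. With 1 array left out they ranged from 202 to 622 and from 158 to 708. Median centring gave 3273 higher in place of 2108 for protoplasts against intact cells.

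Called E2 genes in osmotic against intact cells went from 0 to 1 after median centring or with a pseudocount of 64, and in protoplasts against osmotic cells from 3 to 5 in both and with the replicate block, and to 2 with a pseudocount of 1. Over all genes, 7.33% were called in osmotic against intact cells as deposited, 7.45% after median centring and 10.6% with a pseudocount of 64. In protoplasts against osmotic cells these shares were 39.0%, 38.1% and 40.1%. There the block called 1867 of all genes higher and 3592 lower, and a pseudocount of 1 called 1623 and 3218. Called SUMO genes in osmotic against intact cells went from 0 to 1 with the block, median centring or a pseudocount of 64 and to 2 after quantile normalization, and in protoplasts against intact cells from 2 to 1 after median centring or with a pseudocount of 1. In osmotic against intact cells quantile normalization called 7.98% of all genes, and the block 556 higher and 566 lower. In protoplasts against intact cells 45.0% of all genes were called as deposited and 46.2% after median centring. With a pseudocount of 1, 2016 of all genes were higher and 3714 lower there. Called cullin ligase genes in protoplasts against intact cells went from 1 to 2 with either scaling or a pseudocount of 64, and called U-box genes in osmotic against intact cells from 3 to 1 with a pseudocount of 1. For protoplasts against intact cells, 43.4% of all genes were called after quantile normalization and 45.5% with a pseudocount of 64. A pseudocount of 1 called 300 of all genes higher and 214 lower in osmotic against intact cells.

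Signs turned only for changes that were not called. UBP19 in osmotic against intact cells had -0.077 with replicates 1 and 2 alone and between -0.0046 and 0.34 with 1 array left out. UBP26 in protoplasts against osmotic cells had 0.18 after quantile normalization and 0.18 after median centring. UBP23 in protoplasts against intact cells had 0.26 after median centring, 0.066 with array weights, 0.10 with replicates 1 and 2 alone and between -0.21 and 0.20 with 1 array left out. With 1 array left out, UBP25 in protoplasts against intact cells lay between -0.028 and 0.20, and UBP15 in osmotic against intact cells between -0.13 and 0.17. Signal over background limits dim genes: the log2 changes of UBP27 rest on intensities down to 40.8.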
